A study of Mus musculus with 24 samples.

Results

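The mitochondrial genome was represented in this ATAC-seq series by 3 intervals of the authors' consensus peak set, out of 145143 in all. They are all the intervals on the mitochondrial chromosome, which was chosen with earlier results of these data known. The intervals are named here after the gene that the authors' annotation gives as nearest: mt-Ti, mt-Tr and mt-Nd6. The consensus peaks were themselves called on these libraries, so the presence of an interval is no finding.

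The assay was Omni-ATAC on mouse embryonic stem cells, in which a transposase cuts and tags accessible DNA. Firre is a long noncoding RNA gene on the X chromosome, and the series asked how inducing it with doxycycline changes accessibility over 150 min. The 4 lines were a wild type line (WT control), a line whose genotype is given as Firre inducible transgene (WT Firre line), a Firre KO, or knockout, line (KO control), and a Firre KO line with the Firre inducible transgene (KO Firre line). All 4 lines, controls included, carry the label doxycycline and were grown with LIF, the MEK inhibitor PD0325901 and the GSK3 inhibitor CHIR99021. Each line had 1 library at 0, 30, 60, 90, 120 and 150 min. The counts of 23 of the 24 labelled libraries were used, and the WT Firre line has no value at 60 min here (not analysed). Each genotype was a single line, so genotype and clone cannot be told apart, and the libraries of a line at different times stood in as its replicates. Nothing in the labels says whether they came from separate cultures, so p-values reflect no more than how these libraries spread. Those of edgeR also draw on the spread of other intervals in these libraries.

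Mitochondrial DNA is a small circular genome present in many copies per cell. It is packed into nucleoids by the protein TFAM and carries no histones, so a transposase cuts it readily, and mitochondrial fragments are a well-known part of ATAC-seq libraries that the detergents of Omni-ATAC are meant to reduce. The genome encodes subunits of the respiratory chain and of ATP synthase, the ribosomal RNAs of the mitochondrial ribosome and a set of transfer RNAs. Both strands are transcribed as long precursors, from which the transfer RNAs that lie between the other genes are cut out. Copies of mitochondrial DNA also lie in the nuclear genome, and short fragments from a recent copy and from mitochondria can be hard to place.

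Libraries held 5725518 to 14977148 counts in the peak set (median 7664147), with the highest value in the WT Firre line at 90 min. Promoter intervals of the 7 embryonic stem cell markers were all present and summed to 295.3 to 362.1 CPM (counts scaled to the library total) per library. Of 18 intervals within the Firre gene, 17 summed to 539 to 1403 counts per library in the WT lines and 4 to 39 in the KO lines. The last, at an exon (X:50569280-50570236), went the other way between the controls, with 11 to 19 counts (2.12 ± 0.49 CPM) in the WT control and 25 to 97 (7.05 ± 2.33 CPM) in the KO control. It had 98 to 471 counts in the WT Firre line and 88 to 177 in the KO Firre line, and the labels do not say which part of Firre was deleted. The 5 fibroblast markers, which could come from feeder cells, also all had promoter intervals, summing to 36.6 to 48.2 CPM. In bulk libraries, a change in a few cells and a smaller change in all of them cannot be told apart.

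The 3 intervals together covered 12104 bp of the mitochondrial chromosome in the mm10 build. The interval mt-Ti, named for the isoleucine transfer RNA, spanned chrM:121-6486, a width of 6366 bp that put it at rank 4 of the whole set by width, where the median width was 734 bp. In the RefSeq annotation of GRCm38.p6, the assembly behind mm10, it held 13 genes whole and touched 15: both ribosomal RNAs, 10 transfer RNAs and the 3 protein genes ND1, ND2 and COX1. ND1 and ND2 encode subunits of complex I, and COX1, of which 75.02% lay inside, encodes the catalytic subunit of cytochrome c oxidase. The interval mt-Nd6 spanned chrM:10931-16157, 5227 bp, and held 9 genes whole, among them ND5 and ND6 of complex I and CYTB of complex III, with 44.56% of ND4 besides. ND6 is the protein gene transcribed from the opposite strand to the others.

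The third interval, mt-Tr, was short. It spanned chrM:9384-9894, 511 bp, and held 3 genes whole: the glycine transfer RNA gene TrnG, the complex I subunit gene ND3 and the arginine transfer RNA gene TrnR, after which the annotation names it. It also took in 7 bp of COX3 and 18 bp of ND4L. Between mt-Ti and mt-Tr lay 2897 bp (positions 6487 to 9383) with no interval, which held COX2, ATP8, ATP6 and 3 transfer RNA genes whole. Another 1036 bp (positions 9895 to 10930) without an interval separated mt-Tr from mt-Nd6. Counts outside the intervals were not analysed here, so these stretches carry no value.

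ATP6, in the gap from 6487 to 9383, has a namesake in the nuclear genome: the RefSeq entry of Gm10925 on chromosome 1 (1:24613971-24614651) carries mt-Atp6 as a synonym. No consensus interval overlapped Gm10925. The nearest ended 26273 bp before it and began 30799 bp after it. Of 6 gene symbols listed as nuclear copies, 1 was the nearest gene of an interval: Gm29216, for 1:24645450-24646136. That interval lay at a distance of -29596 bp from the Gm29216 start site, so its counts do not measure the copy itself. It had 9 to 30 counts per library, with line means of 1.70 to 2.60 CPM. No genome sequence was compared, so other nuclear copies were not looked for. How far the chromosome 1 copy extends beyond ATP6, and whether it takes in mt-Tr, was not examined either.

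The 2 long intervals held more counts than any other interval of the series. Summed over the 23 libraries, mt-Ti had 5046315 counts and mt-Nd6 had 4198027, ranks 1 and 2 of 145143. Per library, mt-Ti ranged from 161023 to 342752 counts, or 2.29% to 3.74% of the library total. The range for mt-Nd6 was 133741 to 284621 counts, or 1.90% to 3.13%. Per length the long intervals were nearly level, at 25294 to 53841 counts per kb for mt-Ti and 25587 to 54452 counts per kb for mt-Nd6.

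The ratio of mt-Ti to mt-Nd6 varied little. It was 1.202 ± 0.0037 (SD, n = 23 libraries), with a range of 1.194 to 1.209, while the counts of mt-Ti had a coefficient of variation of 21.1%. Divided by width, the ratio was 0.981 to 0.993. The counting error expected for the ratio was 0.254% to 0.370% per library, and its coefficient of variation over the 23 libraries was 0.308%. The intervals on both sides of the chromosome rose and fell together from library to library to within about their counting error. Pearson's r of their TMM-scaled log2 CPM was 0.9998 over the 23 libraries, as a description, since both values of a library share its depth.

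No difference of a transgenic line from its control in this ratio passed the test. In the wild type background the log2 ratio was 0.267 ± 0.0029 (SD, n = 5) with the transgene and 0.265 ± 0.0057 (n = 6) without it. The difference was 0.0017, with an exact two-sided permutation p of 0.580 and an adjusted p of 0.663 over the 8 tests made on shares and ratios. In the knockout background it was 0.264 ± 0.0034 (n = 6) against 0.267 ± 0.0053 (n = 6), a difference of -0.0029 with an exact permutation p of 0.277, adjusted 0.369. The groups overlapped in both comparisons.

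The 3 intervals together took 4.20% to 6.86% of the counts in peaks. The WT control was the most even line, with a lowest value of 4.25%, a median of 4.51% and a highest of 4.82%, and a mean of 4.52% ± 0.203 (SD, n = 6). The WT Firre line gave 4.75%, 5.06%, 4.31%, 5.62% and 5.76% at 0, 30, 90, 120 and 150 min, a mean of 5.10% ± 0.601 (n = 5). The KO control ran from 4.20% through a median of 5.76% to 6.25%, with a mean of 5.38% ± 0.853 (n = 6). The KO Firre line gave 6.86%, 4.93%, 5.49%, 4.70%, 5.02% and 4.64% at 0, 30, 60, 90, 120 and 150 min. Its median was 4.98% and its mean 5.27% ± 0.835 (n = 6). The order of the means, from the WT control through the WT Firre and KO Firre lines to the KO control, separates no neighbours beyond their spread.

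With the transgene in the wild type background, 3 of 5 libraries lay above all 6 controls, but the difference of 0.576 percentage points did not pass the test (exact two-sided permutation p = 0.0649, adjusted p = 0.104). It moved across the threshold in 1 case: without the WT Firre library of 90 min, the deepest of the series, the difference was 0.774 points and the adjusted exact permutation p was 0.0305. In the knockout background the difference was -0.106 points (exact permutation p = 0.833, adjusted p = 0.833). The KO control exceeded the WT control by 0.857 points, with 4 of its 6 libraries above and 1 below all of the WT control. This last contrast is given without a test, because a result for mt-Tr in it was known when the intervals were proposed. The share of counts in nuclear promoter intervals differed between the lines as well, at 36.1% ± 0.657 in the WT control, 37.6% ± 1.91 in the WT Firre line, 38.8% ± 1.43 in the KO control and 38.5% ± 1.02 in the KO Firre line, and its part in the mitochondrial share was not tested.

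**Figure D1:**
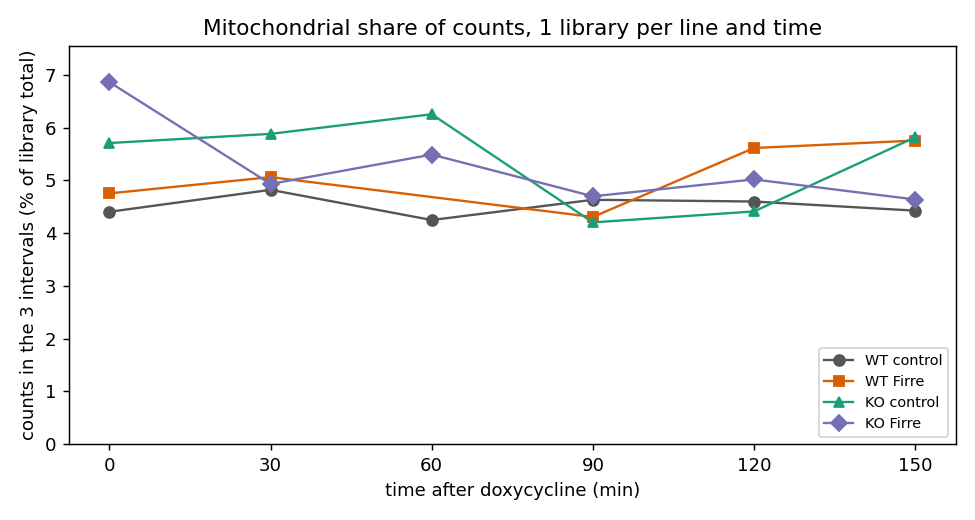
Summed share of the 3 mitochondrial intervals in the counts of each library, in percent, against minutes after doxycycline for the 4 lines; each point is 1 library. The WT control stays between 4.25% and 4.82%, and the other lines lie between 4.20% and 6.86%.

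The short mt-Tr interval set the WT Firre line apart from the other 3 lines. In the WT Firre line it held 9632, 10521, 17839, 12225 and 14127 counts at 0, 30, 90, 120 and 150 min. The WT control had a lowest value of 40 counts, a median of 49.5 and a highest of 64. The KO control had 74, 133 and 188 counts as lowest, median and highest, and the KO Firre line 61, 79.5 and 94. All 5 libraries of the WT Firre line were high from the 0 min sample on, and the other 18 were low.

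As a share of the library total, mt-Tr was 1444 ± 216 CPM (SD, n = 5) in the WT Firre line, with a range of 1191 to 1699 CPM. It was 7.09 ± 1.26 CPM (n = 6) in the WT control, 15.6 ± 3.95 CPM (n = 6) in the KO control and 9.89 ± 2.21 CPM (n = 6) in the KO Firre line. The lowest WT Firre library was 60.1-fold above the highest library of the other lines, which was a KO control at 19.8 CPM. Counting error alone was 0.749% to 1.02% of the count in the WT Firre libraries and 7.29% to 15.8% in the others, so depth limits the low values and not the high ones.

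**Figure D2:**
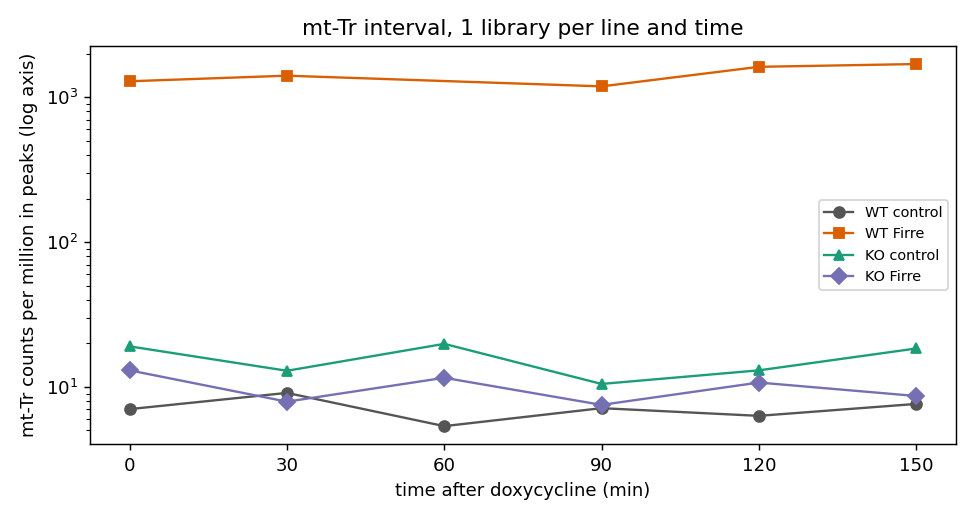
CPM in the mt-Tr interval, on a logarithmic axis, against minutes after doxycycline for the 4 lines; each point is 1 library. The WT Firre line lies at 1191 to 1699 CPM at each time plotted, including 0 min, and the other 18 libraries lie between 5.36 and 19.8 CPM.

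A negative binomial model was fitted to all 129515 intervals that passed the filter on low counts, with edgeR's quasi-likelihood F test and Benjamini-Hochberg adjustment, and all 3 mitochondrial intervals passed that filter. The mt-Tr interval passed it in the high line and had at least 40 counts in every other library. Comparing the WT Firre line with the WT control, the log2 difference of mt-Tr was 7.74 ± 0.16 (SE; adjusted p = 9.40e-78 by edgeR). This was rank 1 of 129515 both by size and by p, and 106 intervals (0.0818%) were called in that comparison at an adjusted p of 0.05 or less. The interval next in size, 10:28997735-28998078 with nearest gene Gm18508, had 0 counts in the WT control, so the size of its fitted difference rests on the prior count of the model. The same held for the interval with rank 3, 12:72047819-72048076. In the WT Firre line, KO control and KO Firre line the mean was 1.92, 1.54 and 1.56 CPM at rank 2. At rank 3 it was 1.43, 1.05 and 1.29 CPM, so in both the WT control was the line that stood apart. The Firre exon interval described above, which also carried signal in the KO control, had rank 4 at 3.71 ± 0.28. Over the whole table, 44 tested intervals (0.034%) had every WT Firre library above every library of the other lines in TMM-scaled CPM. With a margin of at least 2-fold, 1 interval remained, and this was mt-Tr.

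The long intervals on either side did not share this difference. For mt-Ti the log2 difference of the WT Firre line from the WT control was 0.19 ± 0.33 (SE; adjusted p = 0.943 by edgeR), with a 95% interval of -0.45 to 0.83. For mt-Nd6 it was 0.19 ± 0.31 (adjusted p = 0.940), with an interval of -0.42 to 0.80. In TMM-scaled CPM, mt-Ti was 23743 ± 1058 (SD, n = 6) in the WT control and 26963 ± 3940 (n = 5) in the WT Firre line. The SE of the fit also draws on other intervals, so it does not measure this spread alone. The transgene's difference in the knockout background was not like that in the wild type background for mt-Tr: the contrast of the 2 differences was 8.41 ± 0.29 (SE; adjusted p = 1.99e-52 by edgeR), where 345 intervals (0.266%) were called. The same contrast was 0.22 ± 0.45 for mt-Ti (adjusted p = 0.915) and 0.22 ± 0.43 for mt-Nd6 (adjusted p = 0.912).

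Ratios within a library do not depend on its scaling, and they gave the same picture. In the WT Firre line mt-Tr had 51.1, 52.5, 52.0, 54.6 and 55.7 counts per 1000 counts of mt-Ti at 0, 30, 90, 120 and 150 min, a mean of 53.2 ± 1.92 (SD, n = 5). In the WT control it had 0.286 ± 0.041 (n = 6), with a range of 0.231 to 0.345. Per length, mt-Tr stood at 63.6% to 69.4% of the level of mt-Ti in the WT Firre line and at 0.288% to 0.762% of it in the other lines. The difference in the mean log2 ratio was 7.54 in the wild type background (exact two-sided permutation p = 0.00433, the smallest that 5 against 6 libraries can give; adjusted p = 0.00866). Against mt-Nd6 the difference was also 7.54, with the same exact permutation p.

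**Figure D3:**
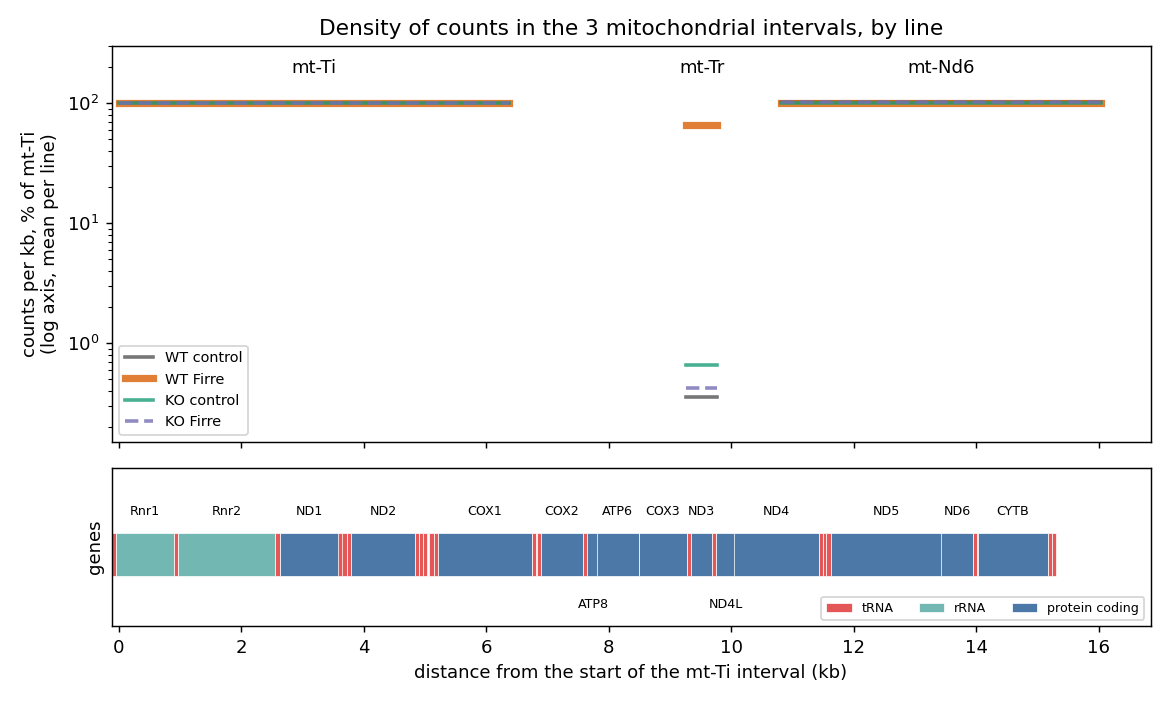
Counts per kb in the 3 intervals as a percentage of mt-Ti in the same library (logarithmic axis, mean per line), drawn to scale along distance in kb from the start of mt-Ti, above the genes of the RefSeq annotation. The 4 lines lie on each other in the 2 long intervals, while in mt-Tr the WT Firre line lies at 66.3% and the others at 0.357% (WT control), 0.427% (KO Firre line) and 0.659% (KO control).

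Between the knockout lines the mt-Tr ratio also differed, in the opposite direction and on a far smaller scale. Per 1000 counts of mt-Ti, the KO control had 0.402, 0.561 and 0.612 counts as lowest, median and highest, a mean of 0.529 ± 0.082 (SD, n = 6). The KO Firre line had 0.293, 0.345 and 0.392, a mean of 0.342 ± 0.043 (n = 6). All 6 KO Firre libraries lay below all 6 KO controls. The difference in the mean log2 ratio to mt-Ti was -0.617 (exact two-sided permutation p = 0.00216, the smallest that 6 against 6 can give; adjusted p = 0.00866), and to mt-Nd6 it was -0.620 with the same p.

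In the fit across all intervals this smaller difference was not called. The log2 difference of mt-Tr between the KO Firre line and the KO control was -0.66 ± 0.21 (SE; unadjusted p = 0.00250, adjusted p = 0.117 by edgeR). With that fit, 1183 intervals (0.913%) were called in this comparison, none of them mitochondrial, and 1 of the 3 mitochondrial intervals, mt-Tr, had an unadjusted p under 0.05. DESeq2 called mt-Tr at an adjusted p of 0.0298 and limma-voom at 2.04e-05, each calling 1 of the 3 intervals. Over the whole table DESeq2 called 150 intervals in this comparison and limma-voom 784. Over all alternatives tried, the adjusted p ran from 2.04e-05 to 0.354. The long intervals had log2 differences of -0.03 ± 0.31 for mt-Ti (adjusted p = 0.983 by edgeR) and -0.03 ± 0.29 for mt-Nd6 (adjusted p = 0.984).

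**Figure D4:**
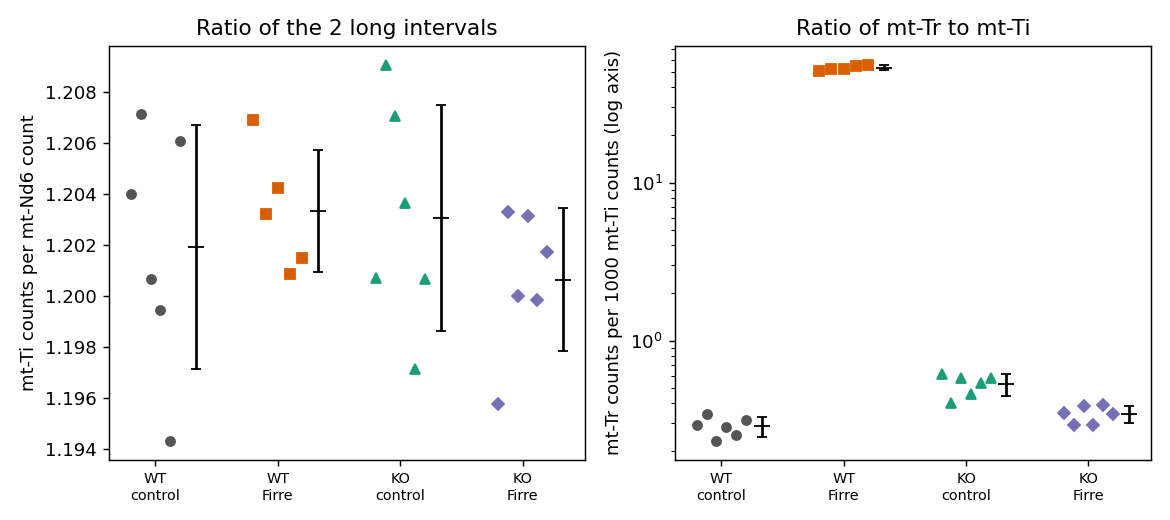
Ratios of counts between mitochondrial intervals in each library, grouped by line: mt-Ti to mt-Nd6 on a linear axis that does not start at 0, and mt-Tr per 1000 mt-Ti counts on a logarithmic axis. Points are libraries and bars the mean ± SD. The first ratio stays between 1.194 and 1.209 in all 23 libraries, while the second is 51.1 to 55.7 in the WT Firre line and 0.231 to 0.612 in the other lines.

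The KO control stood above the WT control for mt-Tr. The log2 difference was 1.21 ± 0.24 (SE), and the ratio to mt-Ti, 0.529 against 0.286 per 1000, did not overlap between the lines. For mt-Ti and mt-Nd6 the differences were 0.33 ± 0.31 and 0.33 ± 0.29. These values are a description with no test, for the reason given above. In that contrast 10323 intervals (7.97%) were called over the whole table. Ordered by the ratio of mt-Tr to mt-Ti, the lines were the WT control, the KO Firre line, the KO control and the WT Firre line. The first and second of these overlapped (0.231 to 0.345 against 0.293 to 0.392), and the others did not overlap with their neighbours.

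Within lines, the spread of the mt-Tr ratio was close to counting error in 2 lines and above it in the others. The SD of the log2 ratio of mt-Tr to mt-Ti was 0.208 in the WT control, where counting error gives 0.206, and 0.181 in the KO Firre line, where it gives 0.166. It was 0.236 in the KO control against 0.134 from counting. In the WT Firre line, with its far larger counts, it was 0.052 against 0.013. Pearson's r between the TMM-scaled log2 CPM of mt-Tr and of mt-Ti was 0.07 over all 23 libraries and 0.79 over the 18 libraries outside the WT Firre line. These values share library depth and are given as descriptions.

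No change after doxycycline was called in any of the 3 intervals by fits that pool lines. The mean Firre response, which is the change from 0 min to the later times in the transgenic lines less that in the control lines, was -0.15 ± 0.62 for mt-Ti, 0.37 ± 0.35 for mt-Tr and -0.15 ± 0.59 for mt-Nd6 (log2 ± SE; adjusted p = 1.00 for each by edgeR). The 95% interval for mt-Tr ran from -0.32 to 1.06. The term averages the 2 transgenic lines, which moved in opposite directions in the summed share. From 0 to 150 min it went from 4.75% to 5.76% in the WT Firre line and from 6.86% to 4.64% in the KO Firre line. Each of these values is 1 library, and a change within a single line was not tested. edgeR called 0 of 129515 intervals (0%) in this comparison, with 4884 (3.77%) at an unadjusted p under 0.05, and 0 of the 3 mitochondrial intervals were among the latter. Over the whole table DESeq2 called 0 intervals and limma-voom 1.

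Doxycycline without the transgene gave the same result. The mean change of the control lines from 0 min was -0.00 ± 0.43 for mt-Ti, -0.22 ± 0.30 for mt-Tr and -0.00 ± 0.41 for mt-Nd6 (log2 ± SE; adjusted p of 0.979 or more by edgeR). Again 0 of 129515 intervals (0%) were called by edgeR, and 0 by DESeq2 and by limma-voom, with 6821 (5.27%) at an unadjusted p under 0.05 and 0 of the mitochondrial ones among them. A slope over time shared by all lines was -0.03 ± 0.09 per hour for mt-Ti (adjusted p = 0.959 by edgeR), 0.10 ± 0.06 for mt-Tr (adjusted p = 0.599) and -0.03 ± 0.09 for mt-Nd6 (adjusted p = 0.959). That fit called 351 intervals (0.271%) elsewhere, a number that ran from 2 to 3177 on leaving out single libraries, 0 of the 3 mitochondrial intervals reached an unadjusted p under 0.05, and DESeq2 and limma-voom also called 0 of the 3. These standard errors belong to means over times and to a slope. With 1 library per line and time, a change at a single time was not tested.

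Mitochondrial DNA is copied and transcribed by proteins that nuclear genes encode, so promoters of 34 such genes were examined. The list holds the packaging factor Tfam, the polymerase Polrmt and its partners Tfb1m, Tfb2m and Tefm, the replication genes Polg, Polg2 and Twnk, RNA processing genes such as Elac2, and regulators such as Nrf1 and Gabpa. Of the 34 genes, 29 had an interval at their promoter, 34 intervals in all, of which 32 passed the filter and were tested. No promoter of the list was called by edgeR for the transgene in the wild type background (0 of 32, with 10 at an unadjusted p under 0.05) or in the knockout background (0 of 32, with 2), or for the difference between them (0 of 32, with 8). DESeq2 and limma-voom also called 0 in each. Of all promoter intervals tested, 12.6%, 9.66% and 12.7% had an unadjusted p under 0.05 in these comparisons. Among all 22021 promoter intervals tested the shares called were 0.0545%, 0.527% and 0.318%. The median log2 difference of the list was 0.11 in the wild type background and 0.01 in the knockout background, beside 0.05 and -0.01 for all promoter intervals.

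For the mean Firre response edgeR called 0 of the 32 upkeep promoters, with 0 at an unadjusted p under 0.05, and for the doxycycline response of the controls 0, with 2. DESeq2 and limma-voom called 0 in both. Along the shared slope 1 promoter rose, that of Tfb2m, a factor that helps the mitochondrial polymerase open its promoters. Its log2 slope was 0.15 ± 0.03 per hour (SE; adjusted p = 0.0264 by edgeR), in a fit that called 1.11% of all promoter intervals. In that fit 8 of the 32 had an unadjusted p under 0.05, where 19.3% of all promoter intervals did, and DESeq2 called 3 and limma-voom 1. Over the whole table these tools called 1857 and 589 intervals. The edgeR call did not hold on leaving out single libraries: 0 of the list were called without any 1 of 10 of the 23 libraries. Without the KO control library of 150 min 6 were called, where 3177 intervals were called over the whole table. With the nuclear promoter share as a covariate 0 promoters of the list were called along the slope, and 36 intervals over the whole table.

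Between the control lines, 10 of the 32 upkeep promoters had an adjusted p of 0.05 or less by edgeR, all with higher values in the KO control and 0 with lower ones, where 17.8% of all promoter intervals were called. The median log2 difference was 0.20, beside 0.09 for all promoter intervals. The largest were Polg2, the accessory subunit of the mitochondrial DNA polymerase (0.47 ± 0.09, log2 ± SE), the RNA helicase gene Supv3l1 (0.46 ± 0.09) and Elac2, which cuts the 3′ ends of transfer RNA precursors (0.46 ± 0.09). The nuclear receptor gene Esrra had 0.40 ± 0.09, Tfb1m, which modifies the small ribosomal RNA, 0.40 ± 0.08, and Tfam 0.38 ± 0.09. The nuclear promoter share moved with these differences, at 38.8% in the KO control and 36.1% in the WT control. With that share as a covariate 1 of the 32 was called and the median of the list was -0.01. Without the KO control libraries of 30 and 90 min, 2 were called, with loess offsets 3, and without the KO control library of 150 min 16. Calls over the whole table moved as well, from 10323 in the main fit to 373 with the covariate. They numbered 2134 without the KO control libraries of 30 and 90 min, 6292 with loess offsets and 17208 without that of 150 min.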

How the data were processed

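The authors deposited raw counts, not normalized, for each consensus peak in each library, and a separate annotation of the peaks. Build mm10 and the tools MACS2 2.2.7.1 and featureCounts are named in, and known only per, the submitters' processing notes. How reads matching several places, duplicates and the transposase offset were treated is not given in the sources used here, and each of these could change counts on mitochondrial DNA. The annotation was read for positions and distances to start sites.

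Counts of 23 libraries were tested with edgeR 4.0.16 (glmQLFit, robust, TMM) on all intervals together. The filter filterByExpr with a minimum of 10 counts and lines as groups kept 129515 of 145143 intervals. The design had terms for line and time as a factor for the contrasts between lines (14 residual degrees of freedom), transgene by time terms for the responses (9) and hours for the slope (18). Values were adjusted by Benjamini-Hochberg over all tested intervals and called at 0.05 or less. The SE is the absolute log2 difference over the square root of F. CPM printed in the text divides by the plain library total, while likeness, the correlations between mitochondrial intervals and the count of intervals with separate lines used TMM-scaled CPM. Shares and log2 ratios (pseudocount 0.5) were compared with exact two-sided permutation tests in SciPy 1.17.1, adjusted over 8 tests. Promoter intervals carry the authors' promoter annotation or lie within 1000 bp of a start site, and the promoter share counts nuclear intervals. Scripts were tested on simulated data.

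DESeq2 1.42.0, limma 3.58.1 (voom), other scalings and filters, a covariate and leaving out each library were alternatives. Named are all mitochondrial intervals, the listed promoters called in a fit (at most 6 by size) and the 5 nuclear intervals most like the mitochondrial sum. The same likeness to mt-Tr and the rank of mt-Tr were added after seeing the data. The members and lists were chosen with earlier results of these data known. Mitochondrial genes were taken from RefSeq (GRCm38.p6).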

Additional observations from a re-analysis of the deposited data

Results flagged for a closer look

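The mt-Tr interval is the result that calls for a closer look, because the difference between the transgenic and the control line was not the same in the 2 backgrounds. The log2 difference was 7.74 in the wild type background and -0.66 in the knockout background. The contrast of the 2 was 8.41 ± 0.29 (SE; adjusted p = 1.99e-52 by edgeR), with all 5 WT Firre libraries above and all 6 KO Firre libraries below the mt-Tr to mt-Ti ratio of every library of their control line. No library stood apart within its line in any of the 28 sets of shares and ratios examined for a single distant value, where chance flags about 1 set in 20.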

How the results depend on the processing

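The 7.74 difference of mt-Tr in the wild type background and its contrast with the knockout background kept direction and call under all 33 alternatives, at 7.64 to 7.86 and 8.30 to 8.53. Of the 3 intervals, the number called in the knockout background was 0, but 1, mt-Tr, with total counts (adjusted p = 0.00767), DESeq2, limma-voom and a minimum of 30 counts (0.0209), and 0 to 1 on leaving out single libraries, 1 without the WT Firre library of 150 min (0.00837). Over the whole table these settings called 1231, 150, 784, 1445 and 1397 intervals, in the same order. The cause of the change in calls was not tested. Loess offsets turned mt-Ti and mt-Nd6 to -0.54 and -0.53 in the wild type background and 0.13 and 0.12 in the knockout background. They gave -0.67 and -0.66 for the contrast of the 2, and -0.85 and -0.83 for the knockout against the WT control. What drove these shifts was not tested.

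Differences near 0 changed sign. For the doxycycline response, mt-Ti and mt-Nd6 gave 0.0034 and 0.0031 with DESeq2, 0.0023 and 0.0020 without a filter, 0.033 and 0.034 with the promoter share in the fit, and 0.030 and 0.031 without the KO controls of 30 and 90 min. Leaving out single libraries gave -0.076 to 0.074 for mt-Ti, -0.34 to 0.033 for mt-Tr and -0.079 to 0.077 for mt-Nd6. For the Firre response these ranges were -0.42 to 0.18, -0.25 to 0.51 and -0.43 to 0.19. For the slope they were -0.059 to 0.0035 (mt-Ti) and -0.058 to 0.0056 (mt-Nd6), and for the transgene in the knockout background -0.12 to 0.021 and -0.12 to 0.024. Loess offsets kept the sign but gave -0.56 and -0.55 for mt-Ti and mt-Nd6 in the doxycycline response and -0.37 and -0.36 in the slope. None of these differences was called.

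Adding the promoter share to the fit, upkeep promoters called numbered 1 for the contrast of transgene effects, 1 between the control lines and 0 along the slope. For that contrast, 1 was also called without the KO control library of 60 min and 3 without that of 150 min. Over the whole table, intervals called on leaving out single libraries ran from 70 (without the WT control of 150 min) to 179 (without the WT Firre line at 90 min) for the transgene in the wild type background, 554 (KO Firre, 150 min) to 1491 in the knockout background, 143 (KO Firre, 120 min) to 1255 for their contrast, 5253 (KO control, 90 min) to 17208 between the controls and 2 (WT Firre, 150 min) to 3177 for the slope, the highest value of the last 4 without the KO control library of 150 min. DESeq2 called 46, 150, 125, 6034 and 1857 in these 5 fits. Replicate numbers stand for times, so differences within times served as the replicate block. Under it the ratios of mt-Tr to mt-Ti (7.48 and -0.617 in the wild type and knockout backgrounds) and to mt-Nd6 (7.48 and -0.620) kept size and lost their calls (adjusted exact p = 0.125); 5 and 6 pairs allow no p below 0.0625 and 0.03125. Without single libraries, the difference in share ran from 0.412 to 0.774 points in the wild type background and -0.424 to 0.0687 in the knockout background, and that in the mt-Ti to mt-Nd6 log2 ratio from -0.00013 to 0.0029 in the wild type background.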

Other observations

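Over 23 libraries and 88444 nuclear and unplaced intervals with a mean of at least 20 counts, the intervals whose TMM-scaled log2 CPM was most like that of the summed mitochondrial intervals lay away from start sites and had mean counts of 21.4 to 49.3 per library. They were near Cap1 (4:122878025-122878970, Pearson's r = 0.76), Gm12090 (11:29559223-29559835, r = 0.73), Gm11742 (11:116554419-116555348, r = 0.72), Crx (7:15864266-15865753, r = 0.70) and Gm26633 (7:79063601-79064260, r = 0.69). The interval near Cap1, an actin regulator, had 3.01 ± 0.44 CPM (SD, n = 6) in the WT control and 4.86 ± 0.83 CPM (n = 6) in the KO control. These values are descriptions over libraries that share depth, with no test.

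The intervals most like mt-Tr lay mostly on unplaced contigs. JH792827.1:120-3339 (r = 0.90) had 10.9 ± 2.09 CPM (SD, n = 5) in the WT Firre line and line means of at most 3.01 CPM in the others. KV575242.1:157723-159286 (r = 0.89) had 45.0 ± 3.83 CPM against line means of 28.0 to 29.1. The interval 19:36925519-36926756 followed (r = 0.87), at 40.3 ± 3.04 CPM against line means of 24.5 to 27.2. Its promoter annotation is for ENSMUSG00000040565.8, while Fgfbp3 is the gene listed as nearest, with its start site at a distance of -6538 bp. Fgfbp3 encodes a protein that binds fibroblast growth factors. Another 2 intervals on the same contigs came next, JH792827.1:16030-17002 (r = 0.86) and KV575242.1:155520-157073 (r = 0.85). In each of the first 3, the WT Firre line had the highest mean, as the choice of the intervals fixes, and none approached the size of the difference in mt-Tr.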
